A study of Mus musculus with 3 samples.

Results

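The constitutive proteasome genes of the mouse were followed in peritoneal macrophages of chromate-treated animals. They were taken as all genes whose name on the array is Psma, Psmb, Psmc or Psmd followed by a number, without the immunoproteasome genes Psmb8, Psmb9 and Psmb10. This gave 35 genes on 52 probes out of 28478 gene names on the array, and all 35 were measured on all 3 arrays, against 12601 genes in all. A gene counted as measured when at least 1 of its probes was well above background on every array and not saturated. The brightest such probe stood for the gene. The symbol was the only criterion, so Psmd5, Psmd9 and Psmd10, which are assembly chaperones and not subunits, and Psma8, a paralog of Psma7 known from testis, are among the 35.

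Total RNA was labelled with Cy3 and hybridised to 3 Agilent mouse arrays of a single colour. Each array stood for a group of 10 male Swiss albino mice aged 8 weeks. All mice were given 125 µg lipopolysaccharide (LPS) into the peritoneum on day 0, the controls included. On day 4 the control group (TPA only) was given 100 ng of TPA, a phorbol ester and tumour promoter. The treated groups were given the same TPA with 35 or 70 nmol of hexavalent chromium, Cr(VI), as potassium dichromate. The protocol counts these doses as nmol of the salt and the sample labels as nmol of Cr(VI). Cells were collected by peritoneal lavage 4 days later, and lipoic acid, which the series title names, was on none of the arrays used here. The labels leave it unsaid whether an array holds RNA of 1 animal or of a pool. With 1 array per group there was no replicate check and no test, so each difference is given beside technical errors only. The 3 arrays lay on 1 slide, so the place on the slide and the group cannot be told apart.

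Probes well above background made up 45.1% to 49.1% of 41174 probes per array, and the log2 signal of spots probed repeatedly on an array had a median SD of 0.034 to 0.045. The 8 macrophage markers looked for (Adgre1, Cd68, Csf1r, Itgam, Lyz2, Cd14, Fcgr1 and Mertk) were measured on every array. Levels below are log2 signals minus the array's 75th percentile. A second yardstick, scaling on spike-in RNA, lowered the median difference of all genes from 0.03 to -0.33 at 70 nmol and from 0.04 to -0.39 at 35 nmol, both against TPA only. Every sign against TPA only is therefore relative to the bulk of the genes on an array. In cells measured in bulk, fewer cells of a type and less RNA per cell cannot be told apart.

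The proteasome is the large protease that degrades proteins tagged with ubiquitin. Its core particle is a barrel of alpha rings, which gate the entrance, around beta rings, of which the subunits encoded by Psmb5, Psmb6 and Psmb7 cut peptide bonds. The regulatory particle caps the barrel: a base with a ring of ATPases (Psmc genes) unfolds the substrate and threads it into the core, and a lid removes ubiquitin. In macrophages exposed to interferon, Psmb8, Psmb9 and Psmb10 take the place of the catalytic subunits and give the immunoproteasome, known for making peptides for antigen presentation. The genes of the complex are known to be transcribed in concert, with the factor Nfe2l1 (also called Nrf1) binding antioxidant response elements when proteasome activity is short, and Nfe2l2 (Nrf2) acting on such elements under oxidative stress.

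Because the members are known to share this control, their promoters were read from the RefSeq table of build GRCm38.p6, from 250 bases before to 50 bases after each gene start, a window of 300 bases. Of the 35 members, 28 had an entry. The letters TGACNNNGC, the stricter core of the antioxidant response element, stood on either strand in the windows of 5 of the 28, against 14% of 27025 genes. Those 5 windows are printed 5' to 3' on the strand of the gene, with every match to the looser core TGANNNNGC, on either strand, in capitals. They were chosen after the expression values were known.
Psmb5: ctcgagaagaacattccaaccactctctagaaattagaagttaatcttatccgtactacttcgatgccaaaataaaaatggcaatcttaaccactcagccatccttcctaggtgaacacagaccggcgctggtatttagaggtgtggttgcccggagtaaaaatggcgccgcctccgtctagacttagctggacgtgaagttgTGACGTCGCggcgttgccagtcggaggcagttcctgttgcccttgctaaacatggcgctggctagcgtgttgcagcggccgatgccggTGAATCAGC
Psmb6: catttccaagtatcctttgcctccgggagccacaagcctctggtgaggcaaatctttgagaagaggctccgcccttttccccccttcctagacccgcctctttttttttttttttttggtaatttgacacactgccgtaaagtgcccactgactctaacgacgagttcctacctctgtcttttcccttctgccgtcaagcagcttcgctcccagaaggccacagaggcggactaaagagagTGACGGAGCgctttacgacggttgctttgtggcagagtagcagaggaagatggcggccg
Psmc6: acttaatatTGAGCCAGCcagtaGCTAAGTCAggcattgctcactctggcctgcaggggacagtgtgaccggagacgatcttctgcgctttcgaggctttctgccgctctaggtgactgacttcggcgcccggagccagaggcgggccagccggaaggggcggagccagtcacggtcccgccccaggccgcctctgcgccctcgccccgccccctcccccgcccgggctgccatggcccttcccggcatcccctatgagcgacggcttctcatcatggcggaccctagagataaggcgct
Psmd9: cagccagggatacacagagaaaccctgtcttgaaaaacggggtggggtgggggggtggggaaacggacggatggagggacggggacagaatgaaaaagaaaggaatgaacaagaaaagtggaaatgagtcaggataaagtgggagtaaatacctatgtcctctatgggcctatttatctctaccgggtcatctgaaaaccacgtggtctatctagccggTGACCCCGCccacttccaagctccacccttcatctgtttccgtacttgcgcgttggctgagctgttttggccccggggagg
Psmd12: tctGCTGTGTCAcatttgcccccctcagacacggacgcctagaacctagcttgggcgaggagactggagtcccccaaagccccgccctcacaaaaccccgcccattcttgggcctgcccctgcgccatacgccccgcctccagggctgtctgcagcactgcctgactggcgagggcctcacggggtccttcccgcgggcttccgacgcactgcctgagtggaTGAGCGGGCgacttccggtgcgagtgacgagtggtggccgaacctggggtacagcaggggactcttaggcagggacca
These windows are chr14:54617946-54618245 (minus strand) for Psmb5, chr11:70525107-70525406 (plus) for Psmb6, chr14:45329574-45329873 (plus) for Psmc6, chr5:123227940-123228239 (plus) for Psmd9 and chr11:107479278-107479577 (plus) for Psmd12. Psmb5, Psmc6 and Psmd12 held 2 matches to the looser core, and Psmb6 and Psmd9 held 1. The looser core, which contains the stricter one, was in 16 of the 28 windows against 45% of all genes.

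Another 8 motifs were searched on both strands of the same windows, with overlaps between motifs allowed. The GC box GGGCGG was in 18 of 28 (38.2% of all genes) and the cAMP response core TGACG, which can overlap TGACNNNGC, in 14 (23%). The ETS-type letters CCGGAAG were in 10 (9.93%) and the motif of nuclear respiratory factor, unrelated to Nfe2l1, in 6 (5.19%). The interferon-stimulated core GAAANNGAA was in 5 (9.76%). Those 5 motifs stood in a larger share of member windows than of all windows, which is a description of letters and not of binding. For every motif, all windows are those of 27025 genes, measured here or not. The share over measured genes alone was not worked out, so a larger share is not shown to be particular to the proteasome. The CCAAT box was in 11 (41.1%), TATAAA in 3 (15.7%) and the E-box CACGTG in 2 (8.09%). No motif was set against the expression values.

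At 70 nmol the constitutive proteasome genes lay a little above the bulk of the genes and close to each other. Their median difference from TPA only was 0.23 on the log2 scale, against 0.03 for all 12601 genes, a shift of 0.19. The shift was 0.12 with cyclic loess; spike-in scaling moves all genes by 1 constant and so cannot alter it. Above the all-gene median lay 32 of the 35, where the background is 50%. The differences ran from -0.20 to 0.64 with an SD over genes of 0.15, against 0.37 for all genes. For complexes compared below, the SD was 0.16 (COP9 signalosome) and 0.09 (eIF3), so such closeness was not particular to the proteasome. On this scaling 34 of 35 were above 0 (55.8% of all genes), whereas spike-in scaling put the members' median at -0.13.

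The differences of single members were small. Only Psmd9 was at least 1.5-fold higher at 70 nmol (1 of 35, background 5.26%), and none was at least 1.5-fold lower (background 3.83%). The scanner software's own error of a difference was 0.20. It comes mostly from a multiplicative error of 10%, set in the software for every array, and is not a measured spread. That error was exceeded by the differences of 21 members (40.6% of all genes), all of them upward on this scaling (23.1%). More than 2 such errors were reached by 4 members (15% of all genes). For a single gene, the median gap between 2 of its probes was 0.19 over the 3919 genes that had more than 1.

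At 35 nmol the same genes were nearer to the bulk. Their median difference from TPA only was 0.11 against 0.04 for all genes, a shift of 0.08, with a range of -0.15 to 0.41. Of the 35, 27 lay above the all-gene median (background 50%), and none was at least 1.5-fold higher (background 2.25%) or lower (background 1.86%). Differences of 8 members exceeded the scanner error (29% of all genes), all upward on this scaling (16.8%). This shift depended on the processing: it was 0.01 with normexp background correction and with cyclic loess, each with 19 of 35 above the median, 0.04 with quantile normalization and 0.05 with the mean over a gene's probes. Under spike-in scaling the members' median was -0.31.

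Between the doses, the members' median at 70 nmol was 0.14 above that at 35 nmol, where all genes had 0.00, and 31 of 35 lay above the all-gene median (background 50%). None was at least 1.5-fold higher (background 3.58%) or lower (background 2.8%). The range was -0.25 to 0.36, and 11 members differed by more than the scanner error (33.1% of all genes), 10 of them upward (17%). The comparisons with TPA only share the control array, so their values are given side by side and are not independent.

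Across the 3 arrays, 31 of 35 members had their highest level at 70 nmol, against 39.6% of all genes. The 35 nmol array was highest for 4 members (32.3% of all genes) and the control for none (28.1%). The control was lowest and 70 nmol highest for 23 members, against 25.6% of all genes. The 70 nmol array was highest for 28 members with normexp (39.3% of all genes), 29 with quantile (37.4%) and 31 with cyclic loess normalization (38.5%). Under spike-in scaling it was highest for 5 (11.1%) and the control for 30 (86.2%), so that the members' highest array was mostly that of the bulk. The lowest array differed more: on that scaling 35 nmol was lowest for 34 of 35 members, against 59.7% of all genes.

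**Figure D1:**
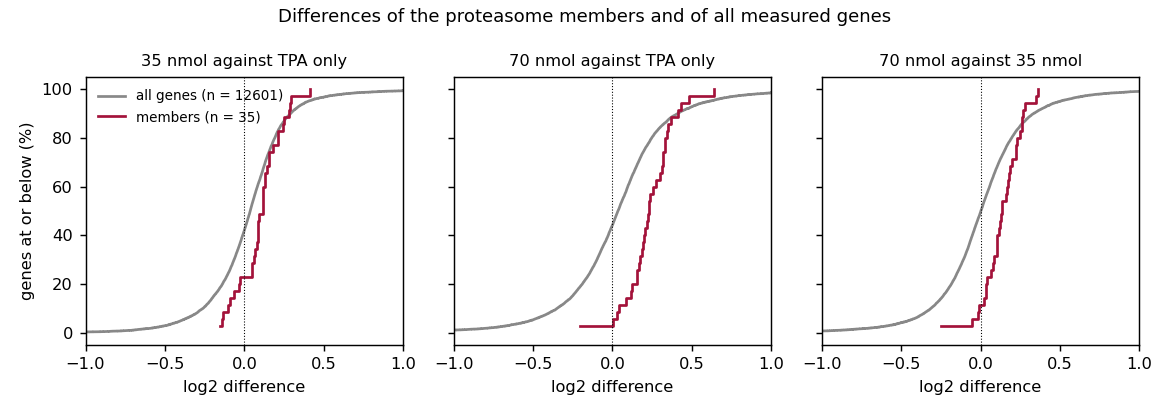
Cumulative share of genes (vertical axis, percent) at or below a log2 difference (horizontal axis) for the 35 constitutive proteasome genes (red) and all 12601 measured genes (grey), for 35 nmol against TPA only, 70 nmol against TPA only, and 70 against 35 nmol. The red curve lies right of the grey one in its middle, by 0.08, 0.19 and 0.13 at the median, and is steeper; the distance, unlike the place of 0, does not move with spike-in scaling.

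The alpha ring, which forms the outer rings of the core and its gate, had a median difference of 0.28 at 70 nmol and 0.15 at 35 nmol against TPA only, and all 8 of its genes lay above the all-gene median at 70 nmol. Psma7 had levels of 6.29 in TPA only, 6.54 at 35 nmol and 6.66 at 70 nmol, a difference of 0.37 at 70 nmol, the widest of the ring. Psma2 lay at 6.03, 6.19 and 6.37, Psma4 at 2.80, 2.89 and 3.13, and Psma6 at 4.03, 4.18 and 4.35. In each of these 4 genes the control was lowest and 70 nmol highest, an order that spike-in scaling does not keep.

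The other alpha genes had differences of 0.04 to 0.24 at 70 nmol. Psma1 stood at 4.26, 4.40 and 4.42 in TPA only, 35 and 70 nmol. Psma5 lay at 5.80 in TPA only and 6.01 at 35 nmol, and was level between the doses (-0.01). Psma3 was nearly level, at 1.82, 1.72 and 1.85. Psma8 had 0.15, 0.44 and 0.39, and since its product resembles that of Psma7, its probe may also bind Psma7 transcripts, so its value is uncertain.

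Of the beta ring, which holds the cutting sites, 7 genes were measured, with medians of 0.31 at 70 nmol and 0.16 at 35 nmol. Psmb11, the thymus form, is carried by 2 probes under another name; neither was well above background on any array, and it is not among the 35. The trypsin-like subunit gene Psmb7 had levels of 2.31, 2.39 and 2.74 in TPA only, 35 and 70 nmol, so that its difference at 70 nmol was 0.43, of which 0.35 lay between the doses. The chymotrypsin-like subunit gene Psmb5 lay at 3.67, 3.92 and 4.09, a difference of 0.42 at 70 nmol and 0.25 at 35 nmol. Psmb6, for the caspase-like subunit, had 5.29, 5.50 and 5.54.

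The ring split by size of difference. Psmb3 (6.40, 6.68 and 6.71) and Psmb4 (5.76, 5.92 and 6.10), structural subunits without a cutting site, differed by 0.31 and 0.34 at 70 nmol. Psmb1 and Psmb2, structural subunits too, were level with the control at 70 nmol: Psmb1 had 4.26, 4.15 and 4.26 and Psmb2 had 0.30, 0.17 and 0.33. In 5 of the 7 beta genes the difference at 70 nmol exceeded the all-gene median, and Psmb1 and Psmb2 were the exceptions.

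The ATPases of the base, which unfold substrates, lay close to each other. All 6 Psmc genes lay between 0.16 and 0.35 at 70 nmol against TPA only (median 0.26, SD 0.08), above the all-gene median, and between -0.03 and 0.18 at 35 nmol (median 0.07). Psmc1 had levels of 3.73, 3.80 and 4.08, Psmc5 of 2.00, 2.09 and 2.32 and Psmc4 of 3.38, 3.56 and 3.67 in TPA only, 35 and 70 nmol. For Psmc1 and Psmc5 the larger step was the one between the doses. Psmc3 stood at 2.53, 2.50 and 2.76, Psmc2 at 4.22, 4.26 and 4.40 and Psmc6 at 4.03, 4.11 and 4.19.

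The remaining base genes were Psmd1 and Psmd2, which encode the scaffolds, and Psmd4, which encodes a ubiquitin receptor. They lay together at 70 nmol, with differences of 0.19, 0.22 and 0.22, and at -0.07, 0.09 and 0.11 at 35 nmol. Psmd1 had levels of 1.54, 1.47 and 1.74, Psmd2 of 4.07, 4.16 and 4.29 and Psmd4 of 3.96, 4.08 and 4.18. A second probe of Psmd4 was well above background at 70 nmol only.

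The lid, which removes ubiquitin chains, had medians of 0.18 at 70 nmol and 0.12 at 35 nmol, and all 8 genes lay above the all-gene median at 70 nmol. Psmd8 stood apart from the other lid genes, with levels of 2.73, 2.85 and 3.21 and a difference of 0.48 at 70 nmol, 0.36 of it between the doses; its probe spans chr7:28884911-28885862 of build mm8. Psmd3, a scaffold of the lid, had 6.42, 6.71 and 6.69, so both chromate arrays were level with each other. Psmd14, the gene of the deubiquitinating enzyme of the lid, had 3.51, 3.49 and 3.69, a difference of 0.17 at 70 nmol that is below the scanner error. Psmd6, Psmd7, Psmd11, Psmd12 and Psmd13 lay between 0.08 and 0.23 at 70 nmol.

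The chaperones that assemble the base held the extremes of the whole set. Psmd9 had levels of 0.83, 1.24 and 1.47 in TPA only, 35 and 70 nmol, differences of 0.41 and 0.64 (1.56-fold). That probe spans chr5:123500355-123502495 of build mm8. The other probe of Psmd9, at chr5:123509133-123509192, lay at -0.88, -0.98 and -0.94, a difference of -0.06 at 70 nmol, so the 2 probes disagree by 0.70 and the gene's value is uncertain. Psmd5 was the 1 member below 0 at 70 nmol on this scaling, with 1.38, 1.42 and 1.18, a difference of -0.20 within the scanner error. Psmd10 had 0.15, 0.00 and 0.27. Without the chaperones and Psma8, 31 subunit genes ran from 0.00 to 0.48 at 70 nmol with the same median of 0.23; under spike-in scaling only Psma7, Psmb5, Psmb7, Psmd8 and Psmd9 of all members kept a difference above 0.

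**Figure D2:**
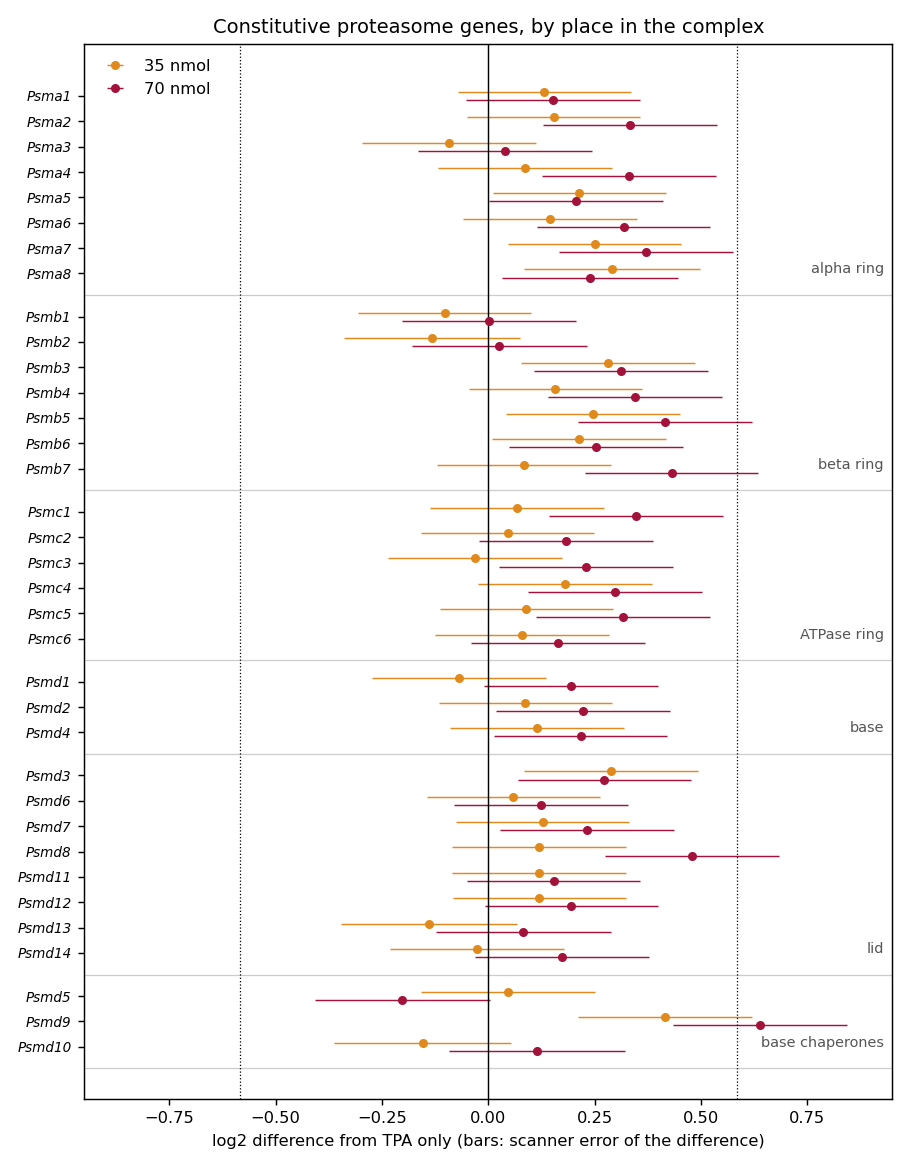
Log2 difference from TPA only (horizontal axis) of each of the 35 genes at 35 nmol (orange) and 70 nmol (red), grouped by place in the complex; bars are the scanner software's error of the difference, 1 array per group, and dotted lines mark 1.5-fold. At 70 nmol every gene but Psmd5 lies at or right of 0 on the 75th percentile scaling, which spike-in scaling would move left by 0.36, and Psmd9 alone passes 1.5-fold.

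Core and regulatory particle had medians of 0.31 (15 genes) and 0.21 (20 genes) at 70 nmol and 0.15 and 0.08 at 35 nmol against TPA only. Between the doses the order of the particles was not kept, at 0.13 for the core and 0.14 for the regulatory particle. With 1 array a group, no test of these differences between particles was possible.

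Probes of the same gene were a second reading of each difference. Of the 35 members, 10 had more than 1 probe that passed. Their probes lay a median of 0.18 apart at 70 nmol and 0.22 apart at 35 nmol, and had opposite signs in 4 and 7 of 10 genes on the 75th percentile scaling. For Psmc6, the brighter probe (chr14:44268689-44270515, mm8) gave 0.16 at 70 nmol and the dimmer one (chr14:44271332-44271391) gave -0.25. Psmd2 gave 0.22 and -0.01 from its 2 probes, and Psmb3 gave 0.31 and 0.23. Between the doses the probes were closer, with a median gap of 0.10 and opposite signs in 1 of 10 genes.

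On the 75th percentile scaling, the sign of the probe gaps mostly went with signal against TPA only. The brightest probe had the higher difference than the dimmest in 8 of 10 genes at 70 nmol (median 0.14) and in 9 of 10 at 35 nmol (median 0.22), but in 5 of 10 between the doses. With cyclic loess these counts were 6 of 10 (median 0.03) and 9 of 10 (median 0.10), and with normexp 7 (0.06) and 8 (0.05). Over the 35 members, the difference and the mean level had a Spearman correlation of 0.24 at 70 nmol, 0.51 at 35 nmol and -0.40 between the doses. The same over 12601 genes was 0.14, 0.23 and -0.05. With cyclic loess the members' values were -0.10, 0.25 and -0.39 and those of all genes -0.10, -0.09 and -0.04, and with normexp 0.07, 0.48 and -0.38 against -0.11, -0.15 and 0.00. All of these points share the arrays, and the comparisons against TPA only share the control. The part of signal strength in the shift was not tested; with cyclic loess, which evens out trends with signal, the shift at 70 nmol was 0.12, with 32 of 35 above the all-gene median, and that at 35 nmol was 0.01.

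**Figure D3:**
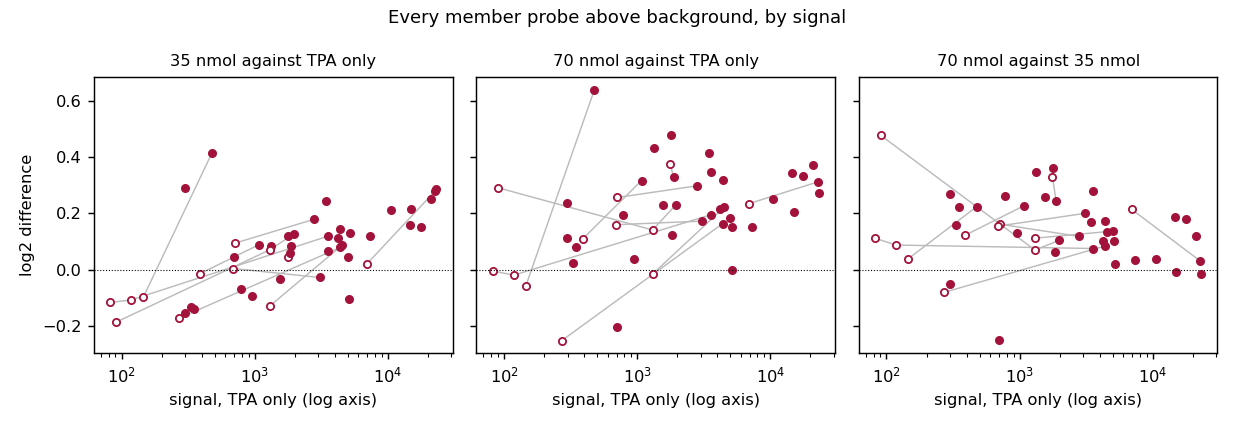
Log2 difference (vertical axis) against processed signal in TPA only (horizontal log axis) for every member probe well above background on all 3 arrays; filled points are the probe used for a gene, open points its other probes, and grey lines join the probes of a gene. At 35 nmol the dimmer probe of a joined pair mostly lies lower, in 9 of 10 genes, and between the doses in 5 of 10.

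The 3 immunoproteasome genes were set beside the constitutive subunits whose places they take. Psmb8, the partner of Psmb5, had levels of 6.41, 6.54 and 6.76 in TPA only, 35 and 70 nmol. Psmb9, partner of Psmb6, had 6.20, 6.36 and 6.49, and Psmb10, partner of Psmb7, had 6.71, 6.95 and 7.04. At 70 nmol their differences from TPA only were 0.35, 0.29 and 0.33, against 0.42, 0.25 and 0.43 for the constitutive partners. The gap within a pair was 0.07 for Psmb5 over Psmb8, -0.03 for Psmb6 over Psmb9 and 0.10 for Psmb7 over Psmb10, each inside the scanner error of 0.29 for such a gap. At 35 nmol and between the doses the gaps were also inside it, the widest being 0.26 for Psmb7 over Psmb10 between the doses. That error rests mostly on a software setting, so how small a gap these arrays could detect was not established.

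**Figure D4:**
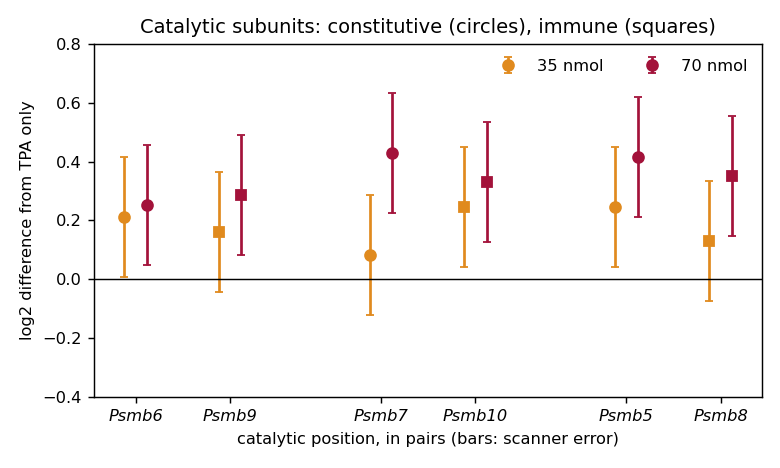
Log2 difference from TPA only (vertical axis) at 35 nmol (orange) and 70 nmol (red) for the constitutive catalytic genes (circles) beside the immunoproteasome genes that replace them (squares); bars are the scanner error, 1 array per group. The bars of each constitutive gene overlap those of its partner at both doses, on the 75th percentile scaling.

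Interferon response genes had larger differences at 70 nmol than either set of catalytic genes. Ifit2, Ifit3, Isg15, Cxcl9, Cxcl10 and Irf1 differed from TPA only by 0.51 (Irf1) to 2.69 (Cxcl9) at 70 nmol and by 0.18 (Isg15) to 2.26 (Cxcl9) at 35 nmol. Cxcl9, a chemokine gene induced by interferon gamma, had levels of -0.19, 2.08 and 2.51. Their part in the values of the immunoproteasome and constitutive genes was not tested.

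Of the other genes of the pathway, listed by function, 35 of 37 were measured. Above the all-gene median lay 26 at 70 nmol and 24 at 35 nmol against TPA only, and 21 between the doses (background 50%). None was 1.5-fold different in any of the 3 comparisons. Over all genes, the share at least 1.5-fold higher or lower ran from 1.86% to 5.26%. The caps and inhibitor (Psme1, Psme2, Psme3, Psme4, Psmf1) had a median of 0.22 at 70 nmol, with 5 of 5 above the all-gene median. Psme1, a subunit of the interferon-induced cap, had levels of 6.28, 6.49 and 6.55. The chaperones that assemble the core (Pomp, Psmg1, Psmg2, Psmg3) had a median of 0.08, with 2 of 4 above, and lay below 35 nmol at 70 nmol in 3 of 4, with a median of -0.06 between the doses. Psmg4 had no matching probe.

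Receptors, deubiquitinases and carriers that serve the proteasome were mixed. Adrm1, a ubiquitin receptor gene outside the naming rule, differed by 0.29 at 70 nmol, and the lid subunit gene Sem1 by 0.03. Uchl5, a deubiquitinase bound to the cap, had levels of 2.74, 3.02 and 3.09, a difference of 0.35 at 70 nmol, whereas Usp14, the other bound deubiquitinase, had 0.09, 0.14 and 0.16. The shuttle factors Rad23b, Ubqln1, Ubqln2 and Ubqln4, which carry tagged proteins, ran from -0.19 (Ubqln2) to 0.38 (Ubqln1). Among ubiquitin genes, Rps27a differed by 0.30, and Ubb was saturated on all 3 arrays. The ubiquitin-activating enzyme genes Uba1 and Uba6 differed by 0.14 and 0.06.

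The regulators of proteasome gene transcription had a median of 0.06 at 70 nmol, with 5 of 9 above the all-gene median. Nfe2l2, the factor of the oxidative stress response, had levels of 3.53, 3.80 and 4.04, differences of 0.27 at 35 nmol and 0.51 at 70 nmol. Nfe2l1 had 4.47, 4.64 and 4.62, so the chromate arrays were level with each other. Ngly1, whose enzyme is needed to activate the Nfe2l1 protein, had 0.33, -0.02 and 0.02, a difference of -0.31 at 70 nmol. Ddi2, the protease that cleaves that protein, differed by 0.10, Nfe2l3 by 0.11 and Vcp by -0.03. The CCAAT-binding factor genes Nfya, Nfyb and Nfyc differed by -0.06, 0.06 and -0.23.

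Complexes built on the same plan as the lid served as a comparison. The COP9 signalosome, which removes the ubiquitin-like protein Nedd8 from ligases, had a median of 0.04 at 70 nmol, with 5 of 9 genes above the all-gene median. The translation factor eIF3 had 0.04, with 6 of 12 above. The lid itself stood at 0.18 with 8 of 8. Between the doses, the COP9 genes had a median of -0.09 (2 of 9 above) and the eIF3 genes -0.03 (4 of 12), against 0.09 (7 of 8) for the lid. At 35 nmol the COP9, eIF3 and lid genes had medians of 0.08, 0.14 and 0.12, with 7 of 9, 9 of 12 and 6 of 8 above. No test of these differences was possible with 1 array a group.

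**Figure D5:**
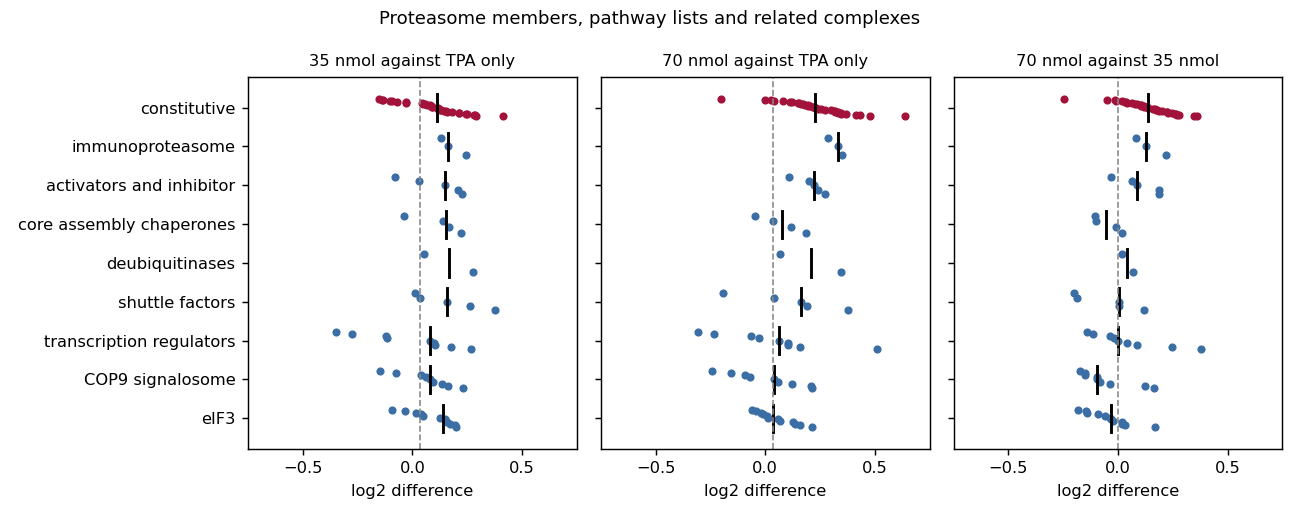
Log2 difference (horizontal axis) of the constitutive proteasome genes (red) and of the listed pathway genes and related complexes (blue) in the 3 comparisons; points are genes, black bars medians and dashed lines the median of all genes. At 70 nmol the median is 0.23 for the constitutive genes, 0.33 for the immunoproteasome, 0.04 for the COP9 signalosome and 0.04 for eIF3; spike-in scaling would move points and dashed lines together.

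Several lists of cell markers had larger differences in median than the proteasome genes. Summed over each list on the linear scaled signal, the 8 macrophage markers gave 515, 512 and 448 in TPA only, 35 and 70 nmol, with a median difference of -0.03 at 70 nmol. Their single differences at 70 nmol were mixed, from -0.51 (Adgre1) to 0.76 (Fcgr1), with 4 of 8 above the all-gene median. The 3 measured markers of large resident macrophages (Gata6, Timd4 and Alox15) gave 125, 106 and 56.6, and the 4 mast cell markers 23.7, 13.1 and 7.20. Both lists lay below the all-gene median in every measured gene at both doses. The 4 fibroblast markers gave 9.52, 10.8 and 32.4, all 4 at least 1.5-fold higher at 70 nmol. B cell markers gave 253, 245 and 198, T cell markers 7.54, 7.61 and 9.13, erythroid markers 67.0, 11.6 and 35.3 and cell division genes 26.3, 33.5 and 28.8. Of 5 liver markers, Alb alone was measured on all arrays, with levels of 3.19, 4.75 and -2.90, and Ahsg, Serpina1d, Fgb and Apoa2 were not well above background at 70 nmol. The 4 neutrophil markers went different ways: S100a9 differed from TPA only by -1.24 at 35 nmol and 1.02 at 70 nmol, Cxcr2 by -2.07 and -1.39, Retnlg by 1.98 and 1.03 and S100a8 by 0.11 and 0.46. The part of the mixture of cells in the proteasome values was not tested.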

How the data were processed

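Spot intensities were extracted with Agilent Feature Extraction 10.5.1.1, per the file headers, which subtracted background; positions are on mm8. From the deposited files, intensity was read as processed signal with its error, and as mean and background signal for normexp. The value table deposited by the authors is in log2 and equalled log2 processed signal minus 1 constant per array (8.00, 7.61 and 7.67 for TPA only, 35 and 70 nmol) within 0.01 for at least 99.8% of the probes well above background; column medians were -3.60, -3.74 and -3.78, so scale and direction are known and genes were not centred.

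Log2 processed signals were scaled on each array's 75th percentile (8.07, 7.69 and 7.74), taken over all spots but the controls. Outlier spots were left out of the probe values only. A gene is its brightest probe that was well above background and not saturated on all 3 arrays. All members are named; some listed pathway and response genes are not reported here. The number of arrays limits the precision, and the scanner error leaves out the animals. Members and lists were chosen with earlier results of these data known. The order over arrays, the relation to signal, the counts past the scanner error over all genes and the motif search were chosen after seeing the data. Alternatives were normexp (offset 50, limma 3.58.1 in R 4.3.3), quantile, cyclic loess and spike-in scaling (4 of 10 spike-in probes, log2 signal 8 to 14), looser and stricter filters on dim probes, saturated probes kept, the mean over probes, the deposited table, and thresholds of 1.25-fold and 2-fold. Steps were tested on simulated data. Python 3.11.15, numpy 2.4.6, pandas 2.3.3 and matplotlib 3.10.9 were used.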

Additional observations from a re-analysis of the deposited data

How the results depend on the processing

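The shift of the constitutive proteasome genes kept its sign under every alternative run: 0.12 (cyclic loess) to 0.21 (looser filter on dim probes) at 70 nmol, 0.01 to 0.09 at 35 nmol, both against TPA only, and 0.12 to 0.14 between the doses. Spike-in scaling and the deposited table move each array by 1 constant, so they could not alter this sign. The filters and the keeping of saturated probes changed only the all-gene median. Members could move against the bulk only with normexp, quantile, cyclic loess and the mean over probes. There the shift was 0.12 to 0.20 at 70 nmol and 0.01 to 0.05 at 35 nmol, both against TPA only. Between the doses it was 0.12 to 0.14. Under spike-in scaling the members' median differences from TPA only were -0.13 at 70 nmol and -0.31 at 35 nmol, since all genes moved down together. The 1 member at least 1.5-fold different at 70 nmol against TPA only, Psmd9, became 0 with normexp, with spike-in scaling, with the mean over probes and at 2-fold, and 9 at the lower of the fold thresholds tried (14.3% of all genes higher). At that threshold, 1 member passed at 35 nmol against TPA only (8.1% of all genes higher) and 2 between the doses (10.46%), where 0 passed at 1.5-fold. Of 945 values of single members under the alternatives, 872 moved by less than the median gap between 2 probes of a gene. The other 73 moved by more, 70 of them under spike-in scaling and 3 with the mean over probes (Psmd9 at both doses, and Psmc6 at 70 nmol). Many of the 872 could not move, or hardly so, and are no check. No member probe was saturated, both filters kept each member's probe, and the deposited table differs by 1 constant per array. The mean over probes could move only the 10 members with more than 1 passing probe. No paired analysis was possible because each group has 1 array. The scanner error of 0.20 rests mostly on a software setting, so it is not a measured limit of detection. A difference of 1 gene below it should not be relied on, and no value says anything about the spread between animals.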
